A study of Homo sapiens with 2 samples.

Results

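The mRNAs described here encode the aminoacyl-tRNA synthetases, the enzymes of serine, asparagine, proline, glutamine and folate-dependent one-carbon metabolism, and the carriers that bring amino acids into the cell. The list names 43 genes of the 20033 protein-coding genes of the nuclear chromosomes in GENCODE release 44. They are 19 cytosolic synthetases, 4 mitochondrial synthetases, 12 genes of amino acid and one-carbon synthesis and 8 genes of amino acid uptake. Their clusters are those that overlap the span of a listed gene on the same strand, with exons and introns kept apart. RNA bound to the cold shock domain protein YB-1 was captured by PAR-CLIP from HEK293T cells, a human embryonic kidney line, of wild-type genotype. The series has 1 condition with 2 replicates, named Rep.A and Rep.B, and no control library, so nothing was compared between conditions. Both replicates had received 4-thiouridine at 100 µM for 16 h and UV light of 365 nm at 0.15 J/cm2, and RNA fragments were made with RNase T1, which cuts after G. Each deposited table lists the clusters called in 1 replicate, 1382 in Rep.A and 2011 in Rep.B, with a mean coverage in reads per base that is not scaled for depth. By the mapped reads listed for the libraries, the depth of Rep.B exceeded that of Rep.A by a factor of 2.63.

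Aminoacyl-tRNA synthetases join amino acids to their tRNAs, and so fix which amino acid a codon is read as. Serine made from a glycolytic intermediate feeds glycine and the one-carbon units carried by folate, while proline, asparagine and glutamine are built from glutamate and aspartate. Many of these genes are transcribed together when amino acids run short. YB-1 is an abundant cytoplasmic mRNA-binding protein, and CATC and CACC are short motifs that its cold shock domain is known to prefer.

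Of the 43 mRNAs, 7 held an exon region present in both tables, which is 16.3% of the list beside 2.82% of all protein-coding genes. They were WARS1, KARS1, HARS1 and YARS1 of the cytosolic synthetases, SHMT2 and PYCR1 of amino acid and one-carbon synthesis, and the carrier SLC7A1. A further synthetase, AARS2, had a cluster in Rep.B alone, which brings the list to 8 genes with an exon cluster in either table, where the share over all protein-coding genes was 4.39%. With introns included, the count stayed at 8 beside 5.51% of all protein-coding genes, since no cluster lay within the introns of a listed gene alone. The other 35 genes had no cluster. The shares are set side by side without a test, and the tables do not hold the level of each mRNA, so binding and abundance cannot be told apart. The list was also chosen with earlier results of these data known, so its share cannot be read as that of an independent list. The count of 7 includes YARS1, whose cluster in Rep.B is 35883 bases wide, and it is 6 among clusters of at most 60 bases, where the share over all protein-coding genes was 2.8%. It fell to 3 under stricter rules, which were a mean coverage of at least 10 (beside 2.1% of all protein-coding genes) and a log odds score at or above the table's median (beside 1.24%).

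**Figure D1:**
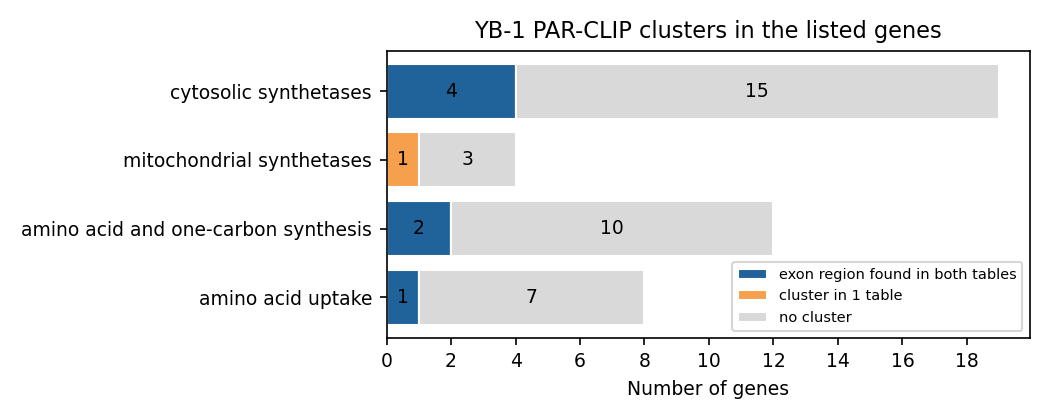
Number of listed genes (x axis) in each of the 4 groups (y axis), split by whether an exon region was found in both tables, a cluster was found in 1 table, or no cluster was found. The cytosolic synthetases hold 4 of the 7 genes found in both tables, and 35 of the 43 genes have no cluster.

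The sequences of the 9 sites of at most 60 bases are shown because they are the stretches of these mRNAs where clusters were called. Each is given 5′ to 3′ on the strand of the gene with T for U, and CATC and CACC are in capitals. The deposited sequence is that of the plus strand and was reverse-complemented for genes on the minus strand. Positions are on hg38, and the strand follows each position in the text after the list.
WARS1: accccaactcctcCATCttcctCACCg
KARS1: tctaagatCATCacatatataag
HARS1: cctaaactatcccaaaacaag
YARS1: tccccccttcttcCACCactg
AARS2: ctttctgggCACCgtggatccacg
SHMT2: tactctccttccccctacctg
PYCR1: cttCACCcactcctactccag
PYCR1, site closer to the stop codon: cCACCACCttctcttctcttg
SLC7A1: taatcctctcctaCATCATCg
The KARS1 sequence is that of Rep.A, and the Rep.B cluster lacks its first base. All 9 sites ended in G, and 7 of them held no other G. CATC was in 3 of them, CACC in 5, both in 1 (WARS1), and neither in 2 (HARS1 and SHMT2). Every one of the 9 sequences occurred once in hg38 when both strands were searched.

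WARS1, the cytosolic tryptophanyl-tRNA synthetase, had the highest coverage of the synthetases in both tables, with 30 reads per base in Rep.A and 67 in Rep.B. The site of 27 bases is at chr14:100342424-100342450 on the minus strand (ENSG00000140105). It lies in exon 9 of 11 of the MANE Select transcript, the reference transcript chosen for each gene. There it spans codons 354 to 363 of 471. The site carried 1 T-to-C transition among its 6 T bases in Rep.A and 3 in Rep.B, which the tables give as crosslinked fractions of 0.17 and 0.50. Among the exon clusters of each table its coverage stood at the 91.8 percentile of Rep.A and at the 89.2 percentile of the other table. It is the only one of the 9 sites with both tetramers, CATC and CACC, and the base just before it is G. No sequence with up to 2 mismatches was found elsewhere in hg38. A gene of the opposite strand, ENSG00000258666, overlaps the site, and the reads were assigned to the strand of WARS1.

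KARS1, which charges lysine tRNAs in both the cytosol and mitochondria, had 9.78 reads per base in Rep.A and 40 in Rep.B. The log2 difference of 2.03 is above the median of 1.38 over all clusters that the tables share. Its site at chr16:75635711-75635733 on the minus strand (ENSG00000065427) lies in exon 6 of 14 and spans codons 248 to 255 of 597. Both tables ended the cluster at the same G and called 1 transition in it, among 7 T bases in Rep.A and 6 in Rep.B. The site holds 1 CATC, and its share of pyrimidines was 47.8% in the Rep.A cluster and 45.5% in that of Rep.B, close to the 47.6% of HARS1. A copy with 1 mismatch lies in the processed pseudogene KARS1P1 at chr13:41926334-41926356 on the plus strand. The aligner's setting allowed 1 mismatch, and the tables do not show how reads were divided between the loci.

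HARS1, the cytosolic histidyl-tRNA synthetase, had a coverage of 14 reads per base in Rep.A against 27 in Rep.B. Its log2 difference of 0.95 was the smallest of the 6 genes with narrow clusters in both tables. The site at chr5:140677061-140677081 on the minus strand (ENSG00000170445) lies in exon 9 of 13 and spans codons 287 to 293 of 509. It holds neither CATC nor CACC and only 3 T bases, with 1 transition called among them in each table. Adenine makes up 47.6% of the site, the highest share of the 9. It is part of 25 of the 30 annotated transcripts of the gene, the highest share among the 9 sites. The lowest share was that of the WARS1 site, in 9 of 44. As for SHMT2 and both PYCR1 sites, 1 copy with 1 mismatch lies elsewhere in hg38, in each case outside annotated exons.

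YARS1, the cytosolic tyrosyl-tRNA synthetase, was present in both tables only through a wide cluster. In Rep.A the site at chr1:32775946-32775966 on the minus strand (ENSG00000134684) had 4 reads per base and 2 transitions among 6 T bases. It begins 15 bases past the stop codon in a 3′ UTR of 742 bases. The Rep.B cluster ends at the same base of the mRNA but runs on upstream through introns and exons to chr1:32775946-32811828, with 9818 T bases, 2 transitions and a mean coverage of 0.0146. Its coverage sums to 525 read bases, against 84 in Rep.A, and the table does not show where within the 35883 bases the reads lie. If all of them lay in the 21 bases of the Rep.A site, the coverage there would be 25. The log2 difference of -8.09 therefore compares clusters of different width, and YARS1 is left out of the order of coverage below.

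AARS2, the mitochondrial alanyl-tRNA synthetase, was the only mitochondrial synthetase of the 4 listed with a cluster. Its site at chr6:44312229-44312252 on the minus strand (ENSG00000124608) had 24 reads per base in Rep.B and no cluster in Rep.A. It spans codons 85 to 93 of 985 in exon 2 of 22. By share of the coding sequence it is the nearest of the coding sites to the start codon, at 9.02%. The site holds 6 G bases before its last, whereas the other 8 hold at most 1. The Rep.B coverage divided by the depth ratio is 9.11, beside 2.42 for the lowest coverage of a narrow cluster in Rep.A. That minimum is not a limit of detection, since calling also depends on T-to-C transitions. Why Rep.A held no cluster here was not tested. The gene of the opposite strand there is ENSG00000272442.

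SHMT2, the mitochondrial serine hydroxymethyltransferase that splits serine into glycine and a one-carbon unit, was covered by 7 reads per base in Rep.A and by 31.7 in Rep.B. Its log2 difference of 2.18 was the largest of the 6 genes. The site at chr12:57234397-57234417 on the plus strand (ENSG00000182199) begins 36 bases past the stop codon in a 3′ UTR of 574 bases. Both tables gave it 2 transitions among 7 T bases, a crosslinked fraction of 0.29. It holds neither tetramer and is 85.7% pyrimidine.

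PYCR1, the mitochondrial enzyme of the last step of proline synthesis, reached 24 reads per base in Rep.A and 73 in Rep.B at chr17:81932907-81932927 on the minus strand (ENSG00000183010). The latter was the highest coverage of any cluster in the listed genes. In the MANE Select transcript the site lies in the 3′ UTR, 287 bases past the stop codon of 823, while it is coding in the transcript ENST00000337943.9 and outside the exons of the transcript with the longest coding sequence. It has 1 CACC and 1 transition among 5 T bases in both tables, and its relative log odds score was 0.0481 and, in Rep.B, 0.00830, low beside 0.206 and 0.331 of WARS1. The second site, chr17:81933168-81933188, begins 26 bases past the same stop codon and was called in Rep.B alone, with 12 reads per base and 1 transition among 8 T bases. It carries CACC at 2 places, and its coverage over the depth ratio is 4.55. The site with the higher coverage is overlapped by ENSG00000263585 on the opposite strand.

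SLC7A1, the carrier of arginine and lysine, had the lowest coverage of the 6 genes with narrow clusters in both tables, 3.86 reads per base in Rep.A and 12.4 in Rep.B. The site at chr13:29535819-29535839 on the minus strand (ENSG00000139514) lies in exon 3 of 13 and spans codons 117 to 124 of 629. CATC occurs at 2 places in a row next to its last G. With 1 transition among 7 T bases, its relative log odds score was -0.00546 in Rep.A, the only negative one of the 16 clusters, and 0.0727 in Rep.B. Although the 3′ UTR of this mRNA is 5066 bases long, no cluster was called in it.

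**Figure D2:**
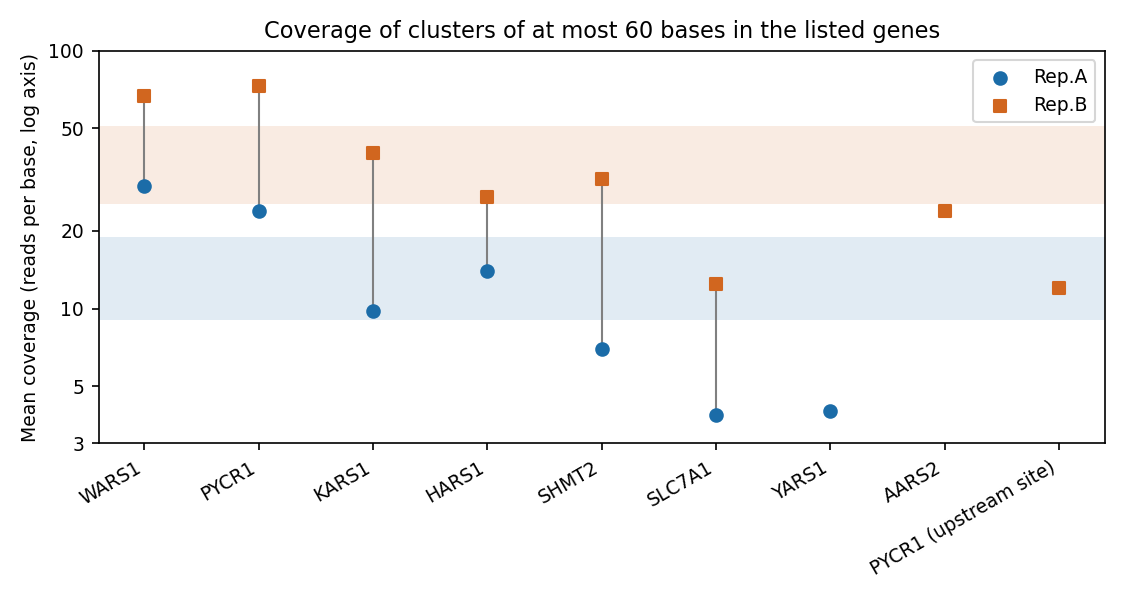
Mean coverage in reads per base (log axis) of the 9 sites of at most 60 bases, with Rep.A as circles, Rep.B as squares and a grey line joining a site called in both tables. The shaded bands run from the lower to the upper quartile over shared exon regions of at most 60 bases, and WARS1 and PYCR1 lie above the band of each replicate.

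In the mean of log2 coverage over both tables, the 6 narrow regions ranked in the order WARS1, PYCR1, KARS1, HARS1, SHMT2 and SLC7A1. The spread to be expected between such means of 2 regions, taken from the SD of the replicate difference over all narrow shared exon regions, was 0.39 on the log2 scale. WARS1 and PYCR1 lay 0.10 apart, KARS1 and HARS1 0.02 and HARS1 and SHMT2 0.38, all within that spread. The steps from PYCR1 to KARS1 (1.08) and from SHMT2 to SLC7A1 (1.11) were larger than it. Neighbours in this order thus differed beyond the spread at these steps only, below PYCR1 and above SLC7A1. Start and end were identical between the tables in 5 of these 6 genes.

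All 6 narrow regions had higher coverage in Rep.B than in Rep.A, with log2 differences from 0.95 to 2.18. Their median was 1.65, beside 1.41 over 618 narrow shared exon regions of other protein-coding genes. The log2 ratio of mapped reads is 1.40, and whether depth accounts for these differences was not tested. The median coverage of the 7 regions, YARS1 included, was 9.78 for Rep.A and 31.7 for Rep.B, beside 14 and 37 over the other 620 regions.

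**Figure D3:**
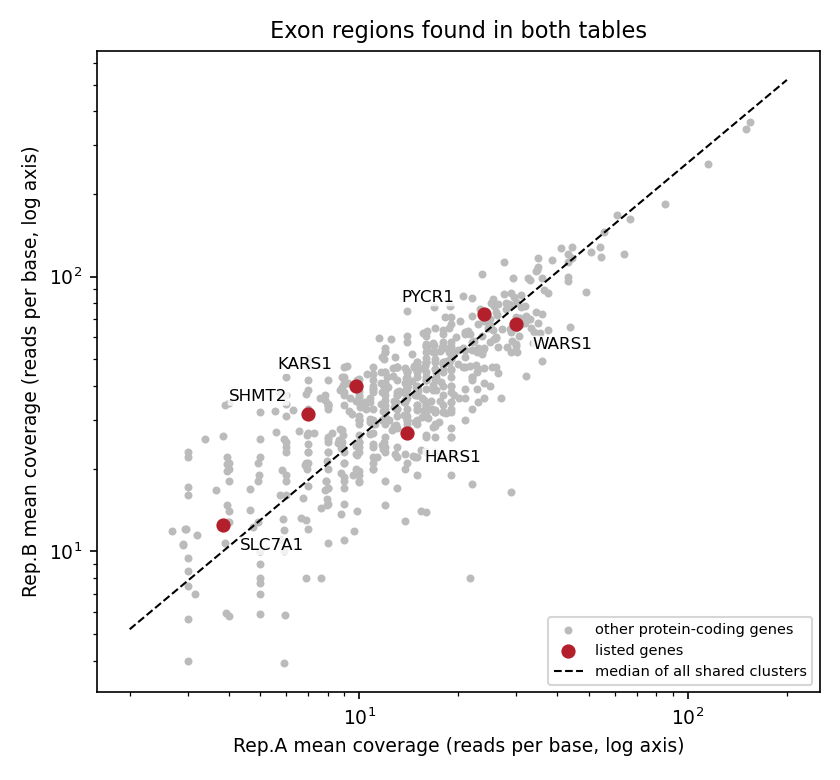
Mean coverage in Rep.A (x axis) and Rep.B (y axis), in reads per base on log axes, of exon regions of at most 60 bases found in both tables, with the 6 listed genes in red and other protein-coding genes in grey. The dashed line is the median difference of all shared clusters (log2 of 1.38), and the listed genes lie on both sides of it.

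On the MANE Select transcripts, 5 of the 9 sites lay in the coding sequence (WARS1, KARS1, HARS1, AARS2 and SLC7A1) and 4 in the 3′ UTR (YARS1, SHMT2 and both sites of PYCR1). No site lay in a 5′ UTR. Of the 4 sites in 3′ UTRs, 3 began within 50 bases past the stop codon. With the transcript of the longest coding sequence, 4 of the 7 shared regions were coding, which is 57.1% (95% Wilson interval 25 to 84.2), beside 57.7% of the 620 regions of other genes. In the synthetases the coding sites were not at 1 fixed place, since they lay 9.02% along the coding sequence in AARS2, 42.0% in KARS1, 56.9% in HARS1 and 76.0% in WARS1.

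**Figure D4:**
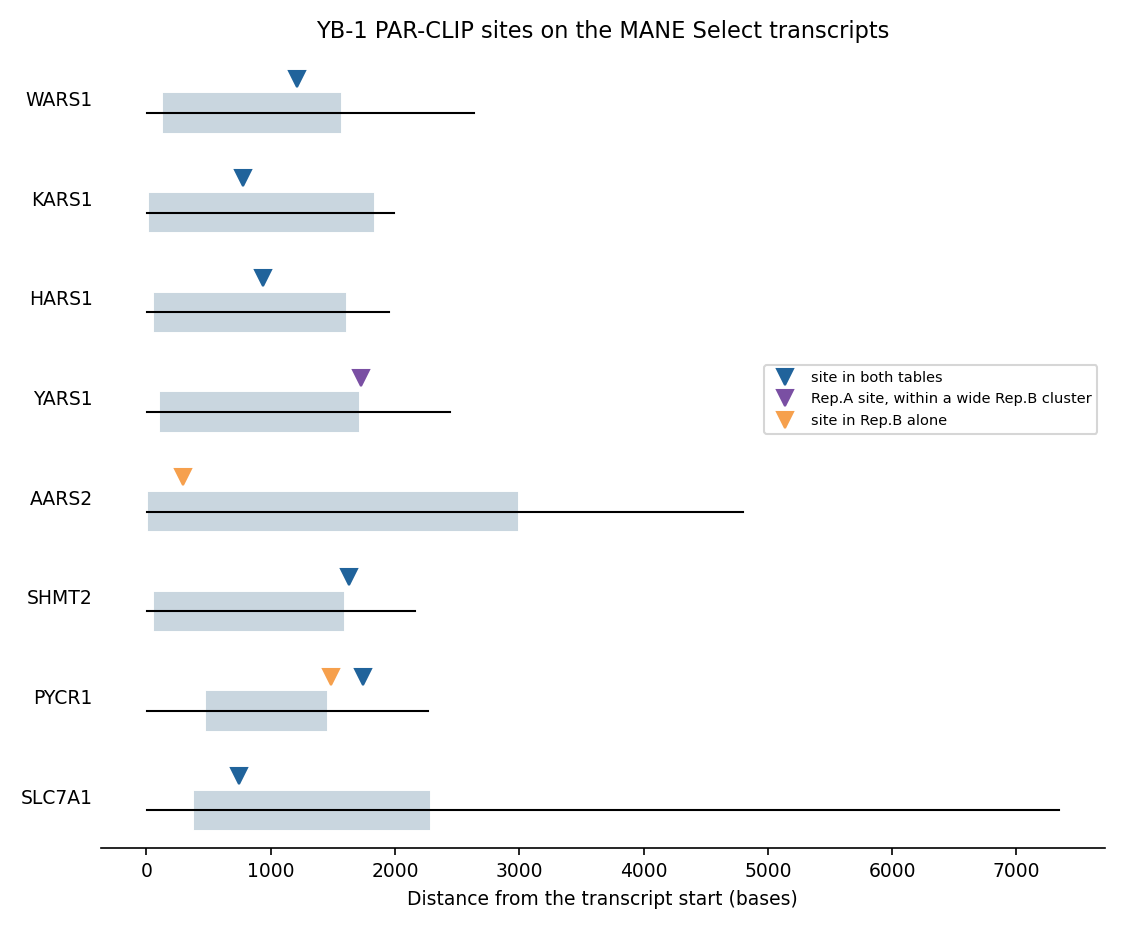
Positions of the 9 sites (triangles) on the MANE Select transcripts of the 8 genes with a cluster, drawn to scale in bases from the transcript start, with the coding sequence as a box and UTRs as lines. The 5 coding sites lie at different places along their coding sequences, and the sites of YARS1 and SHMT2 and the orange one of PYCR1 lie just past the stop codon.

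The shares of regions with a tetramer lay close to those of other genes, with wide intervals at 7 regions. CATC was in 3 of the 7 shared regions, or 42.9% (15.8 to 75), beside 45.3% of the 620 others. CACC was likewise in 3, beside 42.9%, and at least 1 of the tetramers was in 5 of 7, or 71.4%, beside 70.6%. The whole MANE Select transcripts of the 8 genes with a cluster held CATC 9 to 34 times (median 16.5), and those of the 35 without a cluster 4 to 38 times (median 16). The ranges overlap over most of their length. For CACC the ranges were 7 to 48 (median 16) and 5 to 39 (median 13). These are counts per transcript, not scaled for length, and the median lengths were 2356 and 3154 bases in that order.

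Pyrimidines made up 45.5% to 85.7% of the sites, with a median of 76.2%. The shared regions had a median of 76.2%, beside 63.6% over other protein-coding genes, and the median share of cytosine was 52.4% beside 39.1%. KARS1, HARS1 and AARS2 lay below 60% and the other 6 sites above 70%, limits set after the values were seen. All 7 shared regions ended in G, as did 96.6% of the others, which is where RNase T1 cuts. The base before the region was G in 1 of the 7, WARS1, and in 50.6% of the others. These are descriptions of few regions, chosen as a list with earlier results in view, and no difference was tested.

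**Figure D5:**
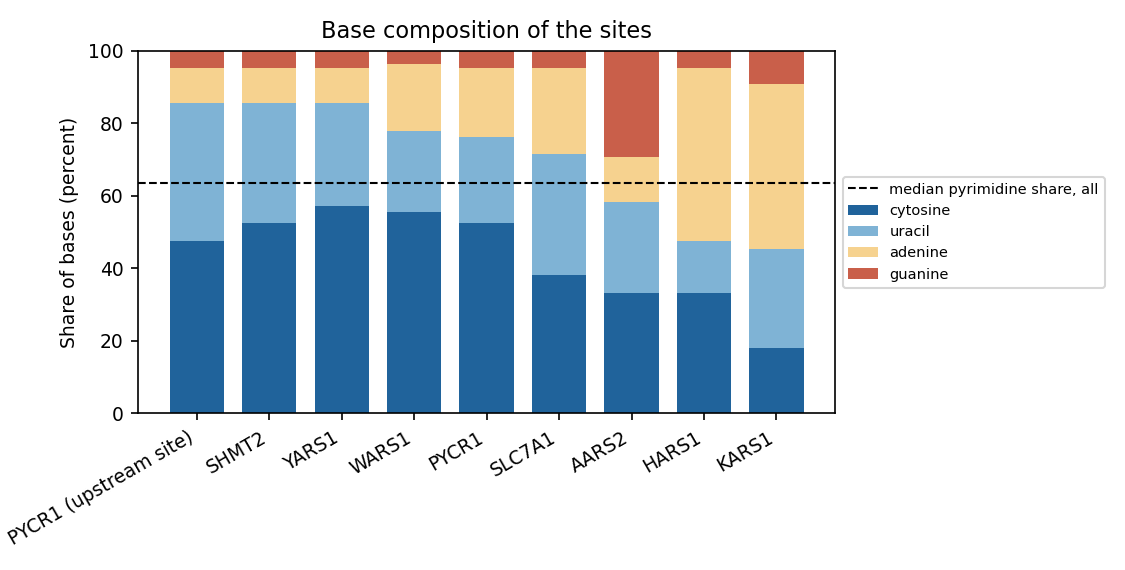
Base composition of the 9 sites as percent of bases (y axis), ordered from the richest in pyrimidines (cytosine and uracil, blue) to the poorest, with KARS1 as its Rep.B cluster. The dashed line is the median pyrimidine share over all shared exon regions of protein-coding genes (63.6%), and AARS2, HARS1 and KARS1 stay below it.

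No cluster was called in the other 15 cytosolic synthetases, AARS1, CARS1, EPRS1, FARSA, FARSB, GARS1, IARS1, LARS1, MARS1, NARS1, QARS1, RARS1, SARS1, TARS1 and VARS1. Those of the mitochondrial synthetases without one were IARS2, LARS2 and MARS2. Among the genes of synthesis, none was called in ASNS, which makes asparagine, in PHGDH, PSAT1 and PSPH, the 3 enzymes of serine synthesis, or in GLUL, which makes glutamine. The same held for ALDH18A1, which starts proline synthesis from glutamate, for the cytosolic SHMT1 and for the one-carbon enzymes MTHFD1, MTHFD2 and MTHFD1L. Of the genes of uptake, SLC7A5 and its partner SLC3A2, the cystine carrier SLC7A11, the neutral amino acid carriers SLC1A4 and SLC1A5, and SLC38A1 and SLC38A2 had none. The MANE Select transcripts of these 35 genes were 1811 to 9645 bases long (median 3154), and those of the 8 with a cluster 1948 to 7343 (median 2356). For a gene without a cluster the tables set no upper limit on binding, since reads that formed no cluster are not listed.

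In 63 other genes of the same pathways, none of them in the list, 5 had an exon region in both tables. That is 7.94% beside 2.82% of all protein-coding genes, while 1 had one in Rep.B alone and 57 had none. These genes too were chosen with earlier results of these data known, and the shares were not tested. GATC, a subunit of the mitochondrial amidotransferase that completes glutamine tRNA, was the only one of 21 further synthetases and partners, with 28.6 reads per base in Rep.A and 64.4 in Rep.B, in that order below too. Of 26 genes of amino acid metabolism there were 3. MAT2A, which makes S-adenosylmethionine from methionine, had 19 and 51, and the alanine transaminase GPT2 had 16.8 and 56.4. SFXN1, the mitochondrial serine carrier, was the only one of 16 further genes of uptake in both tables, with 19 and 56. The regions of GATC, MAT2A, GPT2 and SFXN1 all lay in 3′ UTRs. SLC38A9, the lysosomal arginine carrier, named here after its values were seen, had 5 reads per base in the coding sequence in Rep.B.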

How the data were processed

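YB-1 PAR-CLIP was analysed in 2 replicates of wild-type HEK293T cells. Per the labels and the submitters' processing notes, the authors trimmed reads with cutadapt 2.10 and aligned them to hg38 with Bowtie 1.0.0, and they called clusters of each replicate apart with wavClusteR. Their aligner setting gave reads with several matches 1 position. As deposited, coverage is a signal averaged over the bases of a cluster, with no correction for library depth. The deposited crosslinking efficiency is a fraction of T bases with a transition, and the deposited relative log odds are a score without a fixed range. The authors also gave counts of transitions and of T bases.

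Genes and exons were taken here from GENCODE release 44 on hg38. Clusters of the tables were joined when at least 1 base of the same strand was common to them. The sequences of all 3393 clusters matched hg38. Regions of transcripts were read from the transcript with the longest coding sequence and from the MANE Select transcript. Sequences of 18 to 100 bases were searched in hg38 for exact copies, and those of the listed genes with up to 2 mismatches. Shares carry 95% Wilson intervals, which cover counting error only. With 1 condition, no test was run. All listed genes are named, pathway genes by the rule only with a region in both tables, of which 1 is counted but not reported here, and SLC38A9 is named besides. The members and lists were chosen with earlier results of these data known. The overlap code was tested on simulated data. Python 3.11.15, numpy 2.4.6, pandas 2.3.3, statsmodels 0.14.6, numba 0.67.0, pysam 0.24.0, samtools 1.23.1 and matplotlib 3.10.9 were used.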

Additional observations from a re-analysis of the deposited data

Results flagged for a closer look

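A cluster on the strand opposite to MTHFD1L, which no count above uses, had a mean coverage of 3.66 reads per base in Rep.B. It lies at chr6:150916720-150916775 on the minus strand, is 56 bases wide and holds a run of 38 A bases. It was not found in Rep.A. It is listed because it lies outside the strand of the genes counted, and there is no control library to set it against. With 2 replicates, no group was large enough to look for a sample far from the others.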

How the results depend on the processing

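Of 32 recomputed values, 25 stayed within their limit (1.5 times for a count, the interval for a share, 1 SD for the coverage difference). The 32 count some values again. Genes and regions in both tables gave equal counts under each rule that gave both, since each gene held 1 shared region. Some of the 25 could not move. The shares over single-copy regions and with each gene counted once kept all 7 shared regions. The values without 1 replicate are among the 25 as well. Keeping clusters whose score reached the median of their table, 3 listed genes (HARS1, SHMT2 and WARS1) and 3 regions were found in both tables and 4 genes in either. With a mean coverage of at least 10, 3 genes (HARS1, PYCR1 and WARS1) and 3 regions were found in both. The median log2 difference between the replicates over the 7 shared regions, YARS1 included, was 1.60. It became 0.23 after subtracting the median over all shared clusters and 0.21 after subtracting the log2 ratio of mapped reads. Each subtracts a constant larger than the limit, so both values had to move. Leaving out 1 replicate gave 7 to 8 genes, which for the count in both tables are the genes with an exon cluster in the remaining table and say nothing of its stability. Single-copy clusters, clusters of at most 60 bases and a shared part of at least 50% of each cluster gave 6 genes in both tables, each without YARS1, and the exons of the transcript with the longest coding sequence gave 6 without PYCR1. RefSeq spans gave 8 genes in either table, and RefSeq exons were not run because the table used holds spans only. No paired analysis was possible because there is 1 group. Clusters can be called only where an mRNA has enough reads and T-to-C transitions, and mRNA levels were not analysed here.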
